A study of Rattus norvegicus with 4 samples.

Results

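Transcripts of 10 genes of glucose and lactate handling were read in the rat hippocampus after voluntary wheel running: the glucose transporters Slc2a1, Slc2a3 and Slc2a4, the monocarboxylate transporters Slc16a1, Slc16a3 and Slc16a7, the lactate dehydrogenase genes Ldha and Ldhb, and the pyruvate dehydrogenase kinases Pdk2 and Pdk4. They were chosen by gene symbol, and a probe was taken for a gene when the transcript accession printed beside it on the array resolved to that symbol. This gave 10 of the 8899 genes that could be named on the array, with 11 probes of 10768 named probes and of 41012 probes in all. Slc2a4 had 2 probes and the other 9 genes had 1 each. The probes of Slc2a1 and Ldha and the brighter probe of Slc2a4 were each printed as 10 spots.

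Hippocampal RNA came from male Wistar rats that were 10 weeks old at allocation. Sedentary rats (10 in the group) lived in standard cages, WR rats (8 in the group) had a running wheel without resistance for 4 weeks, and RWR rats (8 in the group) had a wheel whose resistance was raised from a minimum to 30% of body weight over the same 4 weeks. RNA was pooled within each group, with equal amounts from several replicates. Whether a replicate was a single rat, and whether a pool held every rat of its group, is not given in the sources used here. Chips 1 and 2 compared WR with sedentary RNA, and chips 3 and 4 compared RWR with sedentary RNA, all on 1 slide, with the running pool in the red dye Cy5 on chips 1 and 3 and in the green dye Cy3 on chips 2 and 4. Each comparison therefore had 1 biological replicate, the chips of a pair were a technical dye swap, and no test between conditions was possible. The errors below come from the scanner software's error model for single chips, combined over both chips for the mean of a pair. They carry no variation between rats.

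Glucose reaches brain cells through facilitative transporters of the SLC2A family, and lactate moves in and out of cells with a proton through monocarboxylate transporters (MCTs) of the SLC16A family. Lactate dehydrogenase interconverts pyruvate and lactate, with the LDHA subunit usually associated with lactate production and LDHB with lactate use, and pyruvate dehydrogenase kinases switch off the mitochondrial enzyme complex that commits pyruvate to oxidation. In muscle, exercise and fasting are known to raise several of these transcripts, and lactate passed between astrocytes, oligodendrocytes and neurons is much studied in the hippocampus.

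None of the 11 probes was called in either running mode. A probe was called when the running pool lay above 1.5-fold or below 0.75-fold of the sedentary pool on both chips of a pair, with an error-model p-value under 0.01 on both chips. The study's methods name these fold limits, a significance threshold and opposite regulation on the swapped chips, but do not state that limits and threshold had to hold on each chip, so this rule may be stricter than theirs. In WR, 0 of 11 probes were called higher and 0 lower, beside 0.00244% and 0.0293% of all probes with a value on both chips. In RWR, 0 of 11 were called higher and 0 lower, beside 0.00975% and 0.0488% of all probes. With background shares this small, 0 of 11 probes does not set these genes apart from the rest of the array. Without the p-value filter the count was still 0 of 11 in each mode, beside 0.212% higher and 0.337% lower in WR and 0.0878% higher and 1.39% lower in RWR. In either direction these are 0.549% and 1.48% of all probes. With the p-value asked on at least 1 chip and the fold limits on the mean of the pair, 0 of 11 were called in either mode, beside 1.88% in WR and 2.74% in RWR. On single chips, 0 of 11 were called as well, beside 3.92% of all probes on chip 1, 7.81% on chip 2, 6.89% on chip 3 and 6.27% on chip 4.

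Of the 10 genes, 9 could be measured, meaning that neither dye of the gene's brightest probe was near background on any chip (the software's flag for a spot well above it). Over these 9 genes the mean log2 ratio of a pair ran from -0.093 to 0.084 in WR, or from -6.23% to 5.99% relative to the sedentary pool. In RWR it ran from -0.057 to 0.13, or from -3.85% to 9.60%. No gene's mean exceeded its own technical error, which was 0.14 to 0.17 in WR and 0.14 to 0.16 in RWR. The median size of a mean over all measured probes, 0.052 in WR and 0.059 in RWR, was also below these errors. Staying inside the error therefore does not set these genes apart. The error comes from the model and not from the scatter of spots. On chip 1 it was 0.204 for Slc2a1, whose 10 spots had an SD of 0.014. The 95% technical intervals of the 9 genes together spanned 0.771-fold to 1.32-fold in WR and 0.777-fold to 1.34-fold in RWR. Each gene's own interval was narrower than this span, such as 0.828-fold to 1.22-fold for Ldhb in WR. Every interval included no change, and by this error model changes inside a gene's own interval could not be detected with these chips. In tissue pools of this kind, fewer cells of a type and less RNA per cell cannot be told apart.

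**Figure D1:**
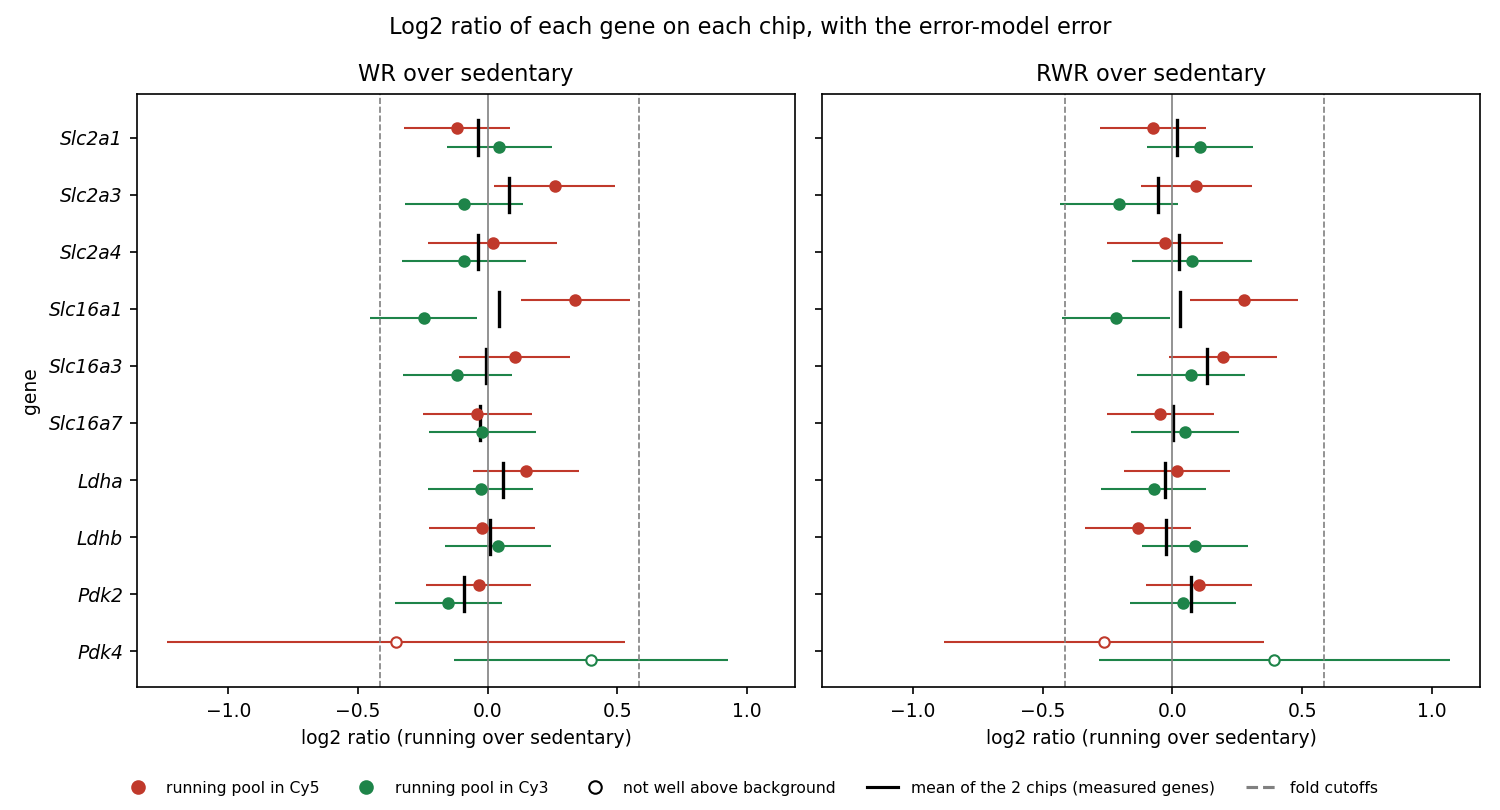
Log2 ratio of running over sedentary for each gene (y axis) on each chip (x axis), WR on the left and RWR on the right. Points are single chips, red with the running pool in Cy5 and green with it in Cy3, horizontal lines are the error-model error, black bars are means of a pair for the measured genes, open points were not well above background, and dashed lines mark 1.5-fold and 0.75-fold. Every filled point lies between the dashed lines, and the red and green points of a gene often lie on opposite sides of 0.

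Among the glucose transporters, Slc2a1 encodes GLUT1, the carrier of brain endothelium and astrocytes. Its signal was 4963 in the WR pool against 5386 in the sedentary pool on chip 1, and 4916 against 4762 on chip 2. On chip 3 it was 5819 in the RWR pool against 6130, and on chip 4 it was 5172 against 4803. The running pool was thus the lower one on both chips where it carried Cy5 and the higher one on both chips where it carried Cy3. The log2 ratios were -0.12 and 0.046 in WR, with a mean of -0.036 ± 0.14 (error of the mean from the error model, 2 chips). In RWR they were -0.075 and 0.11, with a mean of 0.016 ± 0.14.

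The 10 spots of the Slc2a1 probe alternated together. All 10 spots lay below 0 on chip 1, between -0.14 and -0.098, and all 10 lay below 0 on chip 3, between -0.10 and -0.049. All 10 lay above 0 on chip 2, between 0.032 and 0.071, and on chip 4, between 0.083 and 0.14. The SD over spots was 0.014 to 0.018 on the log2 scale on each chip, while the sign differed between the chips of each pair. The spots of a probe share the labelled pools and the chip, so they are not replicates of a condition.

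**Figure D2:**
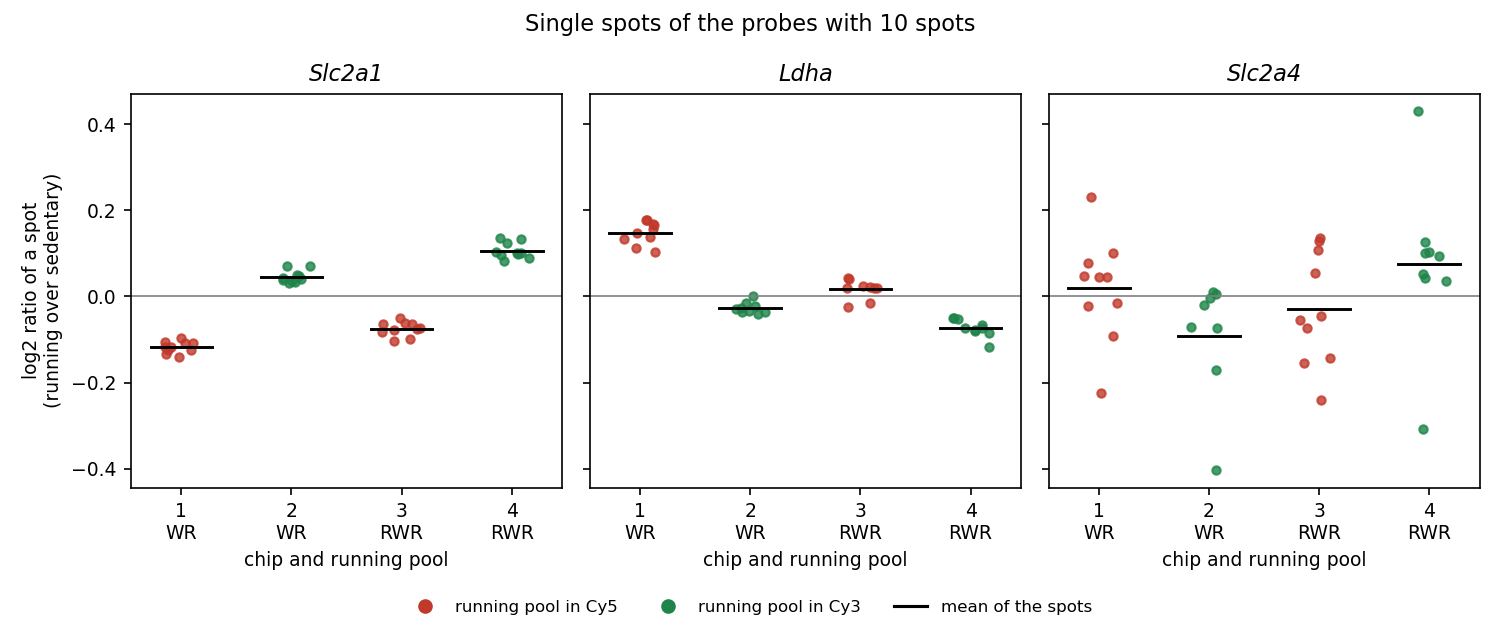
Log2 ratio of running over sedentary (y axis) of single spots on each chip (x axis) for the probes printed as 10 spots, with spots flagged as outliers left out and black bars at the mean. The spots of Slc2a1 sit tightly below 0 on chips 1 and 3 and above 0 on chips 2 and 4, those of Ldha sit tightly above 0 on chip 1 and below 0 on chips 2 and 4, and those of the brighter Slc2a4 probe scatter across 0.

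Slc2a3 encodes GLUT3, the main glucose carrier of neurons. Its signal was 121 in the WR pool against 101 in the sedentary pool on chip 1, and 96.0 against 102 on chip 2. In RWR it was 134 against 126 on chip 3 and 92.0 against 106 on chip 4. Here the running pool was higher where it carried Cy5 and lower where it carried Cy3, the reverse of Slc2a1. The means were 0.084 ± 0.16 in WR and -0.057 ± 0.16 in RWR on the log2 scale. Both signs changed with loess after normexp or after no background correction, settings that change the background correction and the dye normalization together. Over the processing alternatives that kept both chips, the mean ran from -0.11 to 0.084 in WR and from -0.057 to 0.034 in RWR.

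Slc2a4 encodes GLUT4, the insulin-responsive transporter of muscle and fat, which some neurons also make. Its brighter probe gave 75.4 in the WR pool against 75.03 in the sedentary pool on chip 1, and 65.6 against 69.6 on chip 2. On chip 3 the RWR pool gave 82.8 against 84.4, and on chip 4 it gave 85.0 against 80.7. These are nearly equal signals at a low level, with mean log2 ratios of -0.036 ± 0.17 in WR and 0.023 ± 0.16 in RWR. Its single spots lay on both sides of 0 on every chip, with an SD of 0.12 to 0.19.

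The other Slc2a4 probe shows what ratios look like at background. It gave log2 ratios of 1.51 and -1.64 in WR and 1.37 and -1.98 in RWR, with error-model errors between 0.82 and 1.81. Neither pool passed the background flag on chips 1 to 3, and on chip 4 only the sedentary pool did. The p-value of 0.016 on chip 4 was the lowest of any of the 11 probes on any chip. No fold is given for this probe, since in WR neither pool was above background and in RWR the bound from the background was under 1. With both Slc2a4 probes taken as a median, the RWR value of the gene was -0.14 in place of 0.023.

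Among the monocarboxylate transporters, Slc16a1 encodes MCT1, found in brain endothelium, astrocytes and oligodendrocytes. Its signal was 317 in the WR pool against 251 in the sedentary pool on chip 1, and 247 against 293 on chip 2. It was 334 in the RWR pool against 275 on chip 3, and 240 against 279 on chip 4. Whichever pool carried Cy5 was the higher one on all 4 chips. The log2 ratios of 0.34 and -0.25 in WR averaged to 0.046 ± 0.15, and those of 0.28 and -0.22 in RWR averaged to 0.030 ± 0.15.

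The dye term of a pair is the part of the ratio that follows Cy5 over Cy3 and cancels in the mean, and with 1 chip per orientation it also holds the noise of each chip. For Slc16a1 it was 0.29 on the log2 scale in WR and 0.25 in RWR, or 1.22-fold and 1.19-fold, the highest among the 9 measured genes in each mode. A single chip would therefore have given Slc16a1 a ratio of up to 0.34 in favour of running or 0.25 against it. The p-value of 0.107 on chip 1 was the lowest of the 11 probes in WR. The RWR mean ran from -0.0084 to 0.033 over the alternatives that kept both chips, so its sign was not settled.

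Slc16a3 encodes MCT4, a low-affinity carrier known for lactate export from glycolytic cells. In WR its signal was 192 against 178 in the sedentary pool on chip 1 and 162 against 175 on chip 2, and the mean log2 ratio was -0.0062 ± 0.15. In RWR it was 222 against 194 on chip 3 and 206 against 196 on chip 4. The RWR pool was thus the higher one in both dyes, with log2 ratios of 0.19 and 0.071. The mean of 0.13 ± 0.15, or 9.60% above sedentary, was the mean farthest from 0 among the 9 genes in either mode and lay inside its error. It ran from 0.089 to 0.14 over the alternatives that kept both chips. Of all measured probes, 18.5% had an RWR mean farther from 0.

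Slc16a7 encodes MCT2, the high-affinity carrier through which neurons take up lactate. The WR pool gave 256 against 263 on chip 1 and 242 against 246 on chip 2, and the RWR pool gave 272 against 281 on chip 3 and 236 against 228 on chip 4. The mean log2 ratio was -0.030 ± 0.15 in WR, with both chips a little below 0, and 0.00069 ± 0.15 in RWR. The RWR mean came from chips on opposite sides of 0, at -0.048 and 0.049, and its sign changed with the processing, from -0.023 to 0.0042.

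Ldha and Ldhb encode the 2 subunits of lactate dehydrogenase. Ldha gave 3488 in the WR pool against 3147 in the sedentary pool on chip 1 and 3113 against 3172 on chip 2. In RWR it gave 3466 against 3426 on chip 3 and 2912 against 3064 on chip 4. The running pool was higher where it carried Cy5 and lower where it carried Cy3 in both modes. The mean log2 ratio was 0.060 ± 0.14 for WR, against -0.028 ± 0.14 for RWR.

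The spots of the Ldha probe were again tight, with an SD of 0.013 to 0.026 on each chip. All 10 lay above 0 on chip 1, all 9 that were kept lay below 0 on chip 2, 7 of 9 lay above 0 on chip 3, and all 10 lay below 0 on chip 4. Ldhb gave 33008 in the WR pool against 33505 on chip 1 and 29388 against 28562 on chip 2, and 32684 in the RWR pool against 35839 on chip 3 and 29482 against 27788 on chip 4. Its dye pattern was the opposite of that of Ldha, with the Cy5 pool the lower one on every chip. Its means were 0.0098 ± 0.14 for WR and -0.024 ± 0.14 for RWR. The subunit pair therefore showed no shift towards either form beyond its error in either mode.

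Among the pyruvate dehydrogenase kinases, Pdk2 is the widely expressed form in brain. The WR pool gave 9846 against 10086 in the sedentary pool on chip 1 and 8381 against 9304 on chip 2. The RWR pool gave 10910 against 10154 on chip 3 and 9446 against 9187 on chip 4. Pdk2 was thus lower in the running pool on both WR chips and higher on both RWR chips, the only one of the 9 genes on the same side of 0 within each pair and on opposite sides between them. The mean log2 ratio was -0.093 ± 0.14 in WR, a difference of -6.23%, and 0.072 ± 0.14 in RWR, a difference of 5.10%. Each mean lay inside its error. Both kept their sign under every alternative tried, but for single chips this restates that the chips of each pair lay on the same side. The series matrix values, and with 1 probe the median over probes, repeat the main value. With loess after normexp the means were -0.070 in WR and 0.082 in RWR, and after no background correction -0.070 and 0.081. Of all measured probes, 26.9% lay farther from 0 in WR and 42.04% in RWR.

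Pdk4, the kinase known for its rise in muscle with fasting and exercise, was not well above background in any pool on any chip. Its signal was 10.8 in the WR pool against 13.7 on chip 1 and 16.4 against 12.4 on chip 2, and 10.2 in the RWR pool against 12.2 on chip 3 and 12.5 against 9.56 on chip 4. Its log2 ratios of -0.35, 0.40, -0.26 and 0.39 had errors between 0.53 and 0.88. Whether Pdk4 differed between the pools was not detectable with this probe, and no fold is given.

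A further probe, A_44_P812772, is listed under Pdk4 in the study's text, but its accession was not in the gene table used here and it falls outside the way these genes were chosen. It was looked at after its values were seen. Its log2 ratios were -0.43 and 1.51 in WR, on opposite sides of 0. In RWR they were -1.65 ± 0.98 on chip 3 and -1.76 ± 0.82 on chip 4, with error-model p-values of 0.092 and 0.032, so it was not called. Neither running pool was well above background, and the sedentary pool was so on chip 4 only, so no fold is given. The RWR mean of -1.71 became -0.19 with loess after normexp background correction and -0.14 with loess after none.

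Set side by side, the 9 measured genes sat within the bulk of the array. In WR their median log2 ratio was -0.0062, beside 0.0031 over 25492 measured probes, and their median size without sign was 0.036 beside 0.052. In RWR the median was 0.016, beside 0.0044 over 26920 measured probes, and the median size was 0.028 beside 0.059. The middle 50% of all measured probes lay between -0.048 and 0.056 in WR and between -0.053 and 0.065 in RWR. In WR, 0 of 9 genes had a mean past 0.1 in size, beside 24.0% of measured probes, and in RWR 1 of 9 did (Slc16a3), beside 28.4%.

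**Figure D3:**
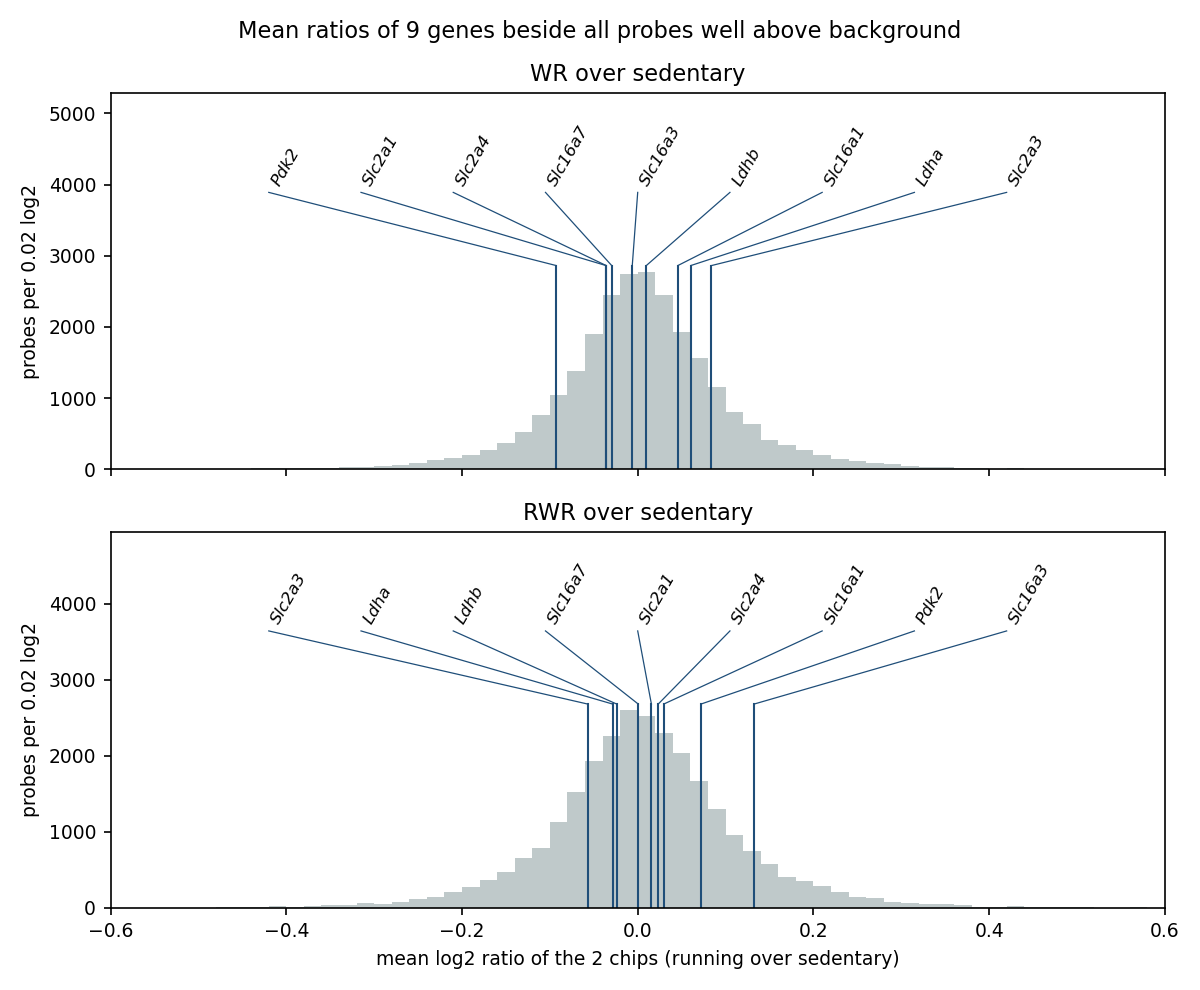
Number of probes (y axis, bins of 0.02) by mean log2 ratio of running over sedentary (x axis) among all probes well above background, with the 9 measured genes as blue lines, WR above and RWR below. The lines run from Pdk2 at -0.093 to Slc2a3 at 0.084 in WR and from Slc2a3 at -0.057 to Slc16a3 at 0.13 in RWR, all within the body of the distribution.

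The chips of a pair lay on opposite sides of 0 for 7 of 9 genes in WR, beside 71.8% of measured probes, and for 7 of 9 in RWR, beside 68.0%. Where they do, the dye term is larger than the mean of the pair. In WR, 0 of 9 lay above 0 on both chips and 2 below (Slc16a7 and Pdk2), beside 14.4% and 13.8% of measured probes. In RWR, 2 of 9 lay above 0 on both chips (Slc16a3 and Pdk2) and 0 below, beside 16.6% and 15.4%. Over all measured probes, the turned log2 ratios of the chips of a pair correlated negatively, with Pearson r = -0.68 in WR and -0.63 in RWR as a description across probes that share their pools and slide.

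The running modes were also set against each other with the dye held fixed, since chips 1 and 3 carried the running pools in Cy5 and chips 2 and 4 in Cy3. Signals were scaled between chips (Aquantile), and the sedentary channels of the same chips, which carry the same name in the labels, were compared in the same way. Whether 1 sedentary pool was used on all 4 chips is not given in the sources used here, so their differences may hold a difference between pools as well as between chips. RWR minus WR ran from -0.12 for Ldha (-8.09%) to 0.18 for Slc16a3 (13.3%) over the 9 genes, with a median of -0.040 beside -0.021 over 24953 probes. The sedentary channels differed by up to 0.17 for the same genes. In 6 of 9 genes both dyes gave the same sign, beside 64.2% of all probes.

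Ldha and Slc2a1 were the 2 of 9 genes whose difference between running pools had the same sign in both dyes and exceeded both sedentary differences, beside 16.6% of all probes. Ldha was lower in the RWR pool than in the WR pool, with log2 differences of -0.14 in Cy5 and -0.11 in Cy3, while the sedentary channels differed by -0.060 and -0.0060. Slc2a1 was higher in the RWR pool by 0.098 in Cy5 and 0.060 in Cy3, while the sedentary channels differed by -0.00062 and 0.055. Over both dyes the Slc2a1 difference averaged 0.079, against 0.0068 with channel medians subtracted and 0.070 with normexp and loess. For Ldha these means were -0.12, -0.20 and -0.13. Which genes met both conditions depended on the processing. Slc16a3 alone did when the median of each channel was subtracted, beside 12% of all probes. Ldha, Slc2a1, Slc16a3 and Pdk2 did with normexp background correction and loess before Aquantile scaling, beside 15.2%. These differences rest on 1 pool of each kind and were not tested.

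Slc16a3 was higher in the RWR pool by 0.060 in Cy5 and 0.30 in Cy3, beside sedentary differences of 0.11 and -0.030. Pdk2 was higher by 0.026 and 0.16, and its sedentary channels differed the other way, by -0.033 in Cy5 and -0.11 in Cy3. With this scaling, the opposite sides on which Pdk2 lay in the 2 comparisons were made up of a difference between running pools and one between sedentary channels. The size of the first depended on the processing. Over both dyes it averaged 0.092 here, 0.016 with channel medians subtracted and 0.12 with normexp and loess. Slc16a1 and Slc16a7 were lower in the RWR pool in both dyes, with log2 differences of -0.071 and -0.072 for Slc16a1 and of -0.056 and -0.070 for Slc16a7, each inside the larger of its sedentary differences. Slc2a3, Slc2a4 and Ldhb changed sign between the dyes.

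**Figure D4:**
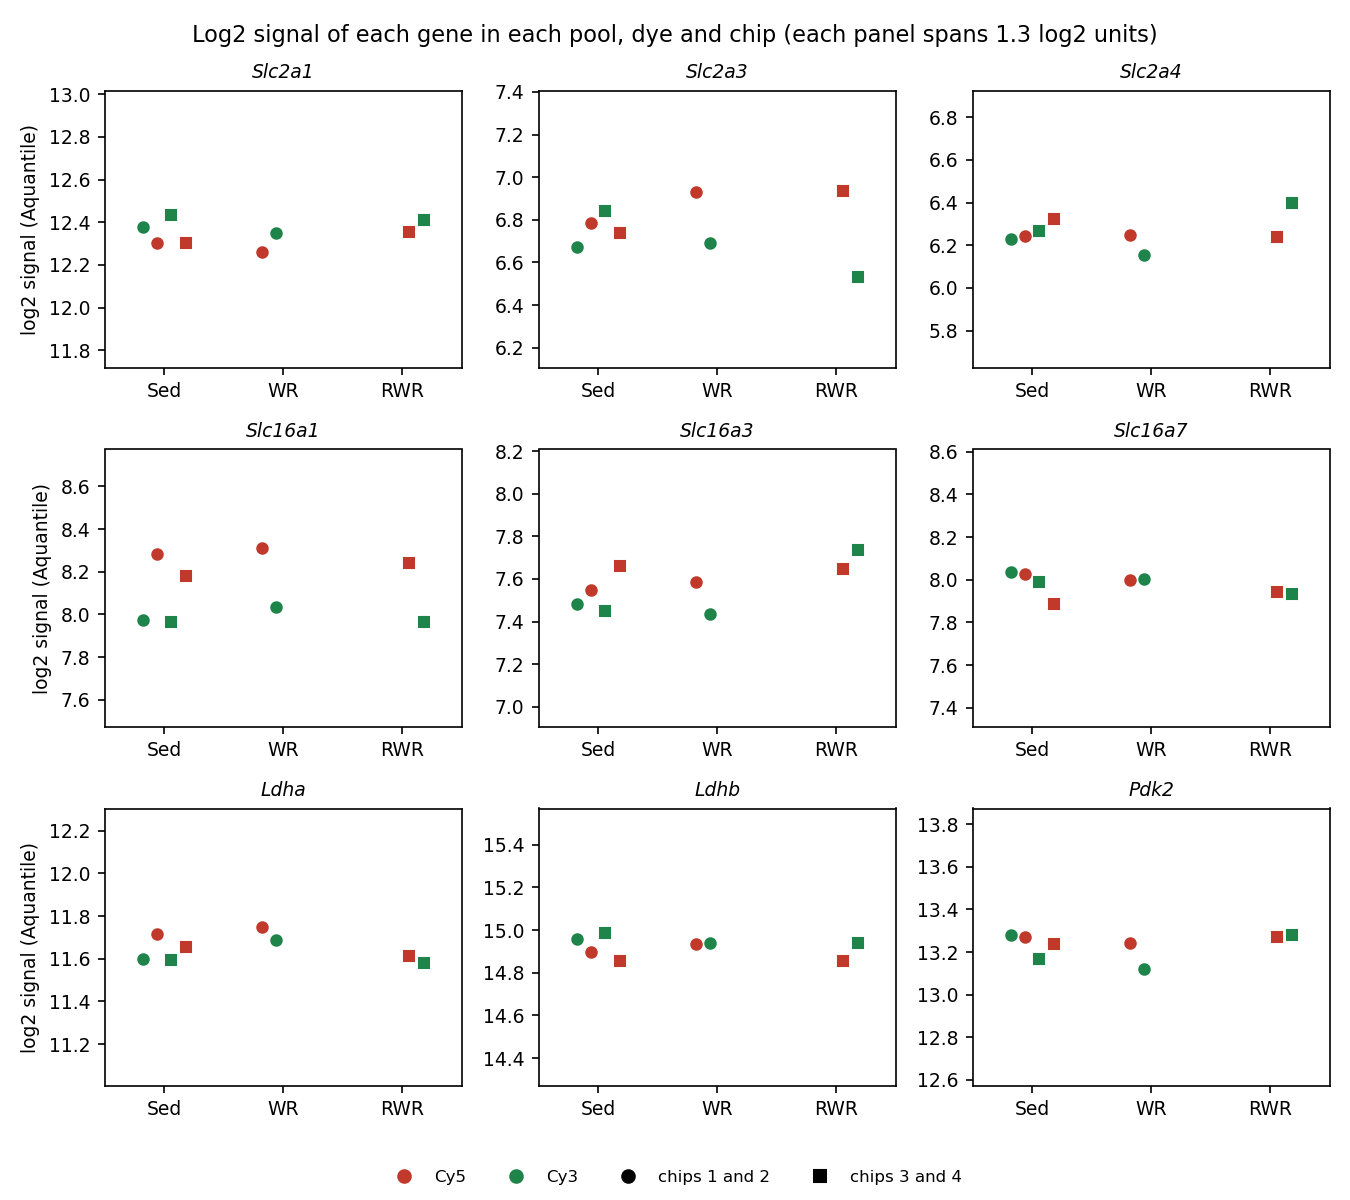
Aquantile-scaled log2 signal (y axis, each panel spanning 1.3 units) of each measured gene in the sedentary, WR and RWR pools (x axis), with Cy5 in red, Cy3 in green, circles for chips 1 and 2 and squares for chips 3 and 4. Slc16a1 separates by dye in every pool, while for Ldha both RWR values lie below both WR values, at 11.6 against 11.7 on average.

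The wider pathway was read from 60 further genes in 5 lists, of which 39 had a probe and 26 were measured in WR and 28 in RWR. None of their 45 probes was called in either direction in either mode, at the background shares given above for these calls. Of the measured genes, 3 lay above 0 and 6 below 0 on both chips in WR, beside 14.4% and 13.8% of all measured probes, and 3 above and 5 below in RWR, beside 16.6% and 15.4%. Their medians were -0.0031 in WR and -0.027 in RWR on the log2 scale, beside 0.0031 and 0.0044 over all measured probes.

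Other hexose transporters had a median of 0.065 over 3 measured genes in WR and -0.067 over 4 in RWR. Slc45a1, a sugar carrier of brain, gave 0.065 ± 0.15 in WR and -0.099 ± 0.14 in RWR. The other SLC16 transporters with the MCT chaperones Bsg and Emb had a median of -0.087 over 5 genes in WR and 0.0055 over 5 in RWR. Slc16a6, which carries ketone bodies, gave -0.14 ± 0.15 in WR and -0.040 ± 0.15 in RWR. Basigin (Bsg), which brings MCT1 and MCT4 to the cell surface, gave 0.067 ± 0.14 in WR and 0.0055 ± 0.14 in RWR.

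Pyruvate entry and the pyruvate dehydrogenase complex had a median of -0.0031 over 10 measured genes in WR and -0.028 over 9 in RWR. The mitochondrial pyruvate carrier genes Mpc1 and Mpc2 and the complex subunits Pdha1, Pdhb, Dlat and Dld all lay between -0.045 and 0.069 in both modes. Pdk1, the kinase induced by low oxygen, lay above 0 on both WR chips (0.12 and 0.023) and below 0 on both RWR chips (-0.30 and -0.16). Its RWR mean of -0.23 ± 0.15, a difference of -14.8%, was the mean farthest from 0 among the measured genes of these lists and was short of the cutoffs.

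Among genes of glucose phosphorylation and GLUT4 trafficking, 2 were measured in WR and 3 in RWR. Txnip, whose product lowers glucose uptake and whose transcript follows glucose, gave log2 ratios of -0.14 and -0.26 in WR and -0.048 and -0.40 in RWR. It was lower in the running pool on all 4 chips, with means of -0.20 ± 0.15 and -0.22 ± 0.15, differences of -12.9% and -14.3% that were short of the cutoffs. Hk1, the main hexokinase of brain, gave 0.0084 ± 0.14 in WR and 0.087 ± 0.14 in RWR. Neither running pool passed the background flag for Hk2, the hexokinase of muscle.

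PPAR-, FoxO- and fasting-linked genes had a median of -0.0044 over 6 measured genes in WR and 0.027 over 7 in RWR. In WR, Angptl4, a fasting-induced inhibitor of lipoprotein lipase, gave -0.19 ± 0.15, against -0.043 ± 0.15 in RWR. In RWR, Ucp2, a mitochondrial carrier, lay above 0 on both chips (0.32 and 0.12) with a mean of 0.22 ± 0.15, a difference of 16.5%, against 0.13 ± 0.15 in WR. Cpt1a, which brings fatty acids into mitochondria, gave 0.095 ± 0.15 in WR and -0.088 ± 0.15 in RWR. None of these reached the cutoffs on both chips.

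Markers of neurons (4 of 4 with a probe), astrocytes (7 of 7) and oligodendrocytes (6 of 6) were measured above background in both modes. Markers of skeletal muscle were measured for 1 of 4 genes with a probe. Choroid plexus markers ranged from -0.86 to -0.21 in WR over the 2 measured genes, and Ttr, the transthyretin gene of that tissue, was called lower there. In RWR the same list ranged from 0.055 to 0.12. Oligodendrocyte markers lay between -0.080 and -0.051 in WR and between -0.24 and -0.024 in RWR, with the means of all 6 genes below 0 in each mode. On both chips of a pair, 3 of 6 lay below 0 in WR and 2 of 6 in RWR, beside 13.8% and 15.4% of measured probes. Endothelial markers, of interest for Slc2a1 and Slc16a1, went both ways, from -0.12 to 0.096 in WR and from -0.17 to 0.19 in RWR over 4 genes, with medians of -0.038 and -0.037. Microglial markers lay between -0.11 and 0.069 in WR and between -0.28 and 0.28 in RWR over 5 genes. The part of these markers in the ratios of the transporters and enzymes was not tested.

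Of 43379 noncontrol spots on each chip, 118 to 140 were flagged as outliers and 0 were saturated. The share of spots that passed the background flag was 67.5% to 77.6% for Cy3 and 71.7% to 82.5% for Cy5. Precision is limited by the number of chips.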

How the data were processed

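The members and lists were chosen with earlier results of these data known. Hippocampal RNA pools were hybridized by the authors to a rat 4x44K oligo array in 2 colours. The deposited intensity of each dye was background-subtracted and dye-normalized (LOWESS) by Feature Extraction 11.0.1.1, per the file headers and the submitters' notes. The deposited log10 ratio is Cy5 over Cy3, and the deposited p-value and error come from the software's error models for 1 chip. The series matrix, also deposited, gives those ratios again as log10 values computed from both signals.

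Here, control and outlier-flagged spots were removed, each ratio was put as running over sedentary in log2 units, and a probe's spots were averaged (p-values by their median). Ratios set to 0 by the software (1384 to 2825 spots per chip) were kept. Array accessions were matched without version to a RefSeq table of GRCr8, used for names only; the array was designed on rn4, so no positions are given. The brightest probe represented a gene. The error of a mean combines both chips' errors. Pools in the same dye were compared after Aquantile scaling (limma 3.58.1, R 4.3.3; Python 3.11.15). Pathway genes were named when called, and otherwise up to 6 per comparison by largest mean among measured genes on the same side of 0 on both chips, and a few others, chosen after their values were seen, describe a list. Some genes that this rule names are not reported here. Alternatives were loess after normexp (offset 50) or after no background correction, median centring, series matrix values, other p-value filters, equal cutoffs, a filter on dim probes, the median over a gene's probes, and single chips.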

Additional observations from a re-analysis of the deposited data

Results flagged for a closer look

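Pdk2 lay below 0 on both WR chips (-0.035 and -0.15) and above 0 on both RWR chips (0.10 and 0.040), and its log2 ratio was higher in RWR than in WR by 0.16. Pdk1 lay above 0 on both WR chips (0.12 and 0.023) and below 0 on both RWR chips (-0.30 and -0.16), a difference of -0.30. Cpt1a did likewise with 0.047 and 0.14 in WR against -0.16 and -0.011 in RWR, which differ by -0.18. Each value sets the RWR ratio against the WR ratio, so it also holds any difference between the sedentary channels. For Pdk2, RWR minus WR in the same dye averaged 0.092, or 0.016 with channel medians subtracted. Its sedentary channels differed by -0.11 in Cy3 and -0.033 in Cy5. Same-dye differences of Pdk1 and Cpt1a are not given here. None of these differences was tested, since each mode has 1 pool. Of 24953 probes measured in both comparisons, 4.62% lay on opposite sides in this way.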

How the results depend on the processing

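The count of called probes among the 10 genes was 0 in both modes under every alternative run, and 0 of 144 values of the 9 measured genes passed the cutoffs, with a range from -0.25 to 0.34 that single chips of Slc16a1 set. The 144 values are not separate checks, since several alternatives repeat the main values. Of all probes, 0.549% in WR and 1.48% in RWR passed the fold cutoffs without a p-value filter, and 7.81% were called on chip 2 alone. A count of 0 therefore does not set these genes apart. The median log2 ratio of the 9 genes with 1 chip left out ran from -0.091 to 0.019 in WR and from 0.016 to 0.049 in RWR. The median difference of RWR minus WR in the same dye was -0.10 when each channel's median was subtracted and 0.019 with normexp, against -0.040; these settings moved the median of all probes by -0.048 and 0.014. Among the pathway lists, called probes rose from 0 to 1 in WR with either chip left out (Ppara without chip 1, Slc5a2 without chip 2), beside 7.81% and 3.92% of all probes. In RWR they rose from 0 to 1 without the p-value filter (Slc5a1, beside 1.48% of all probes) and to 1 with the filter on at least 1 chip and cutoffs on the mean (Slc16a8, beside 2.74%). They rose to 2 with either RWR chip left out (Slc16a8 and Pdp2, both lower, without chip 3, and Slc16a10 and Pdp2, both higher, without chip 4; 6.27% and 6.89% of all probes), so the call of Pdp2 turned direction with the chip; the cause was not tested. Of the values of single genes under alternatives that kept both chips, 88 moved by less than the spread of the chips and 2 by more (Slc16a7 in WR under normexp, at -0.0086, and Slc2a4 in RWR over both probes, at -0.14). Many of the 88 could not move. Series matrix values repeat the deposited ratios, and a gene with 1 probe keeps its value in the median over probes. Median centring left the WR values unchanged. The spread of the chips also holds the dye term, so the sign changes of Slc2a3 counted among the 88. No paired analysis was possible because each comparison has 1 biological replicate and the labels carry no replicate numbers. Signal over background limits Pdk4 and the dimmer Slc2a4 probe.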
